A study of Homo sapiens with 6 samples.

Results

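Serine synthesis and one-carbon folate metabolism were followed through 8 enzyme genes in MIA PaCa-2 cells, an established human pancreatic carcinoma line. The members were chosen by name, as the rows of the gene table that carry PHGDH, PSAT1, PSPH, SHMT1, SHMT2, MTHFD1, MTHFD2 or MTHFD1L. Each of the 8 has 1 row of its own among the 18268 rows, and all 8 passed the filter on low values that left 9694 tested rows. Of 6 RNA sequencing libraries, 3 represent LINC00901 overexpression, LINC00901 being a long noncoding RNA, and 3 represent the pCDH vector control. Both kinds of cell grew in the same medium, DMEM with fetal bovine and horse serum. The labels name no clone and leave unsaid whether the replicates are independent cultures, and the p-values below therefore reflect library-to-library spread that may be partly technical. LINC00901 itself was not analysed here, so its overexpression rests on the labels and was not checked in these data.

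Cells make serine from the glycolytic intermediate 3-phosphoglycerate. PHGDH oxidizes it, PSAT1 transfers an amino group, and PSPH removes the phosphate to release serine. The hydroxymethyltransferases SHMT1, in the cytosol, and SHMT2, in mitochondria, then split serine into glycine and a one-carbon unit carried on folate. MTHFD2 and MTHFD1L process that unit in mitochondria and release it as formate, and the trifunctional enzyme MTHFD1 uses formate in the cytosol, where the units serve purine and thymidylate synthesis. Several of these genes are known targets of the stress-induced transcription factor ATF4, and proliferating tumour cells commonly express them at high levels.

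Levels are given as FPKM, fragments scaled by gene length and by sequencing depth, which allows levels of different genes to be compared. The FPKM values of a library summed to 127768 to 128538 in the overexpression group and to 87162 to 88738 in the vector group. The median tested row was 0.27 log2 higher in the overexpression libraries (1.20-fold), and a change is therefore also given relative to that median. As a check of the labelled epithelial cells, KRT18 stood at 70.8 ± 14 FPKM in overexpression libraries and at 100 ± 7.97 FPKM in vector libraries (SD, n = 3 each), while EPCAM and CDH1 were at or near 0 in all 6. Of the 6 genes on this epithelial list 4 were tested: KRT18 and the joined row of KRT8 were lower, and KRT19 and VIM were higher. The KRT18 call was lost without overexpression replicate 1 (limma adjusted p = 0.0671) or 2 (0.0677) and without vector replicate 1 (0.0638) or 3 (0.0616). The list had sums of 643.64 to 762.14 FPKM with overexpression and 319.58 to 386.68 FPKM with vector, most of it VIM, a mesenchymal marker, at 577 ± 49.5 FPKM with overexpression and 229 ± 27.5 FPKM with vector (SD, n = 3). Of 11 markers of fibroblasts, leukocytes and endothelium, PTPRC and CD3E were listed at 0 in every library. The 11 rows summed to 200.59 to 221.25 FPKM with overexpression and to 194.37 to 212.31 FPKM with vector. Most of that sum was COL3A1, at 161.90 to 180.45 FPKM with overexpression and 170.17 to 185.05 FPKM with vector. COL1A1 was higher, at 1.67 ± 0.280 FPKM with overexpression and 0.583 ± 0.297 FPKM with vector (SD, n = 3; log2 change 1.03, limma adjusted p = 0.00913, or 0.0506 with equal FPKM sums). The row of CD68 also joins EIF4A1 and SENP3, so its level cannot be assigned to CD68. This joined row was higher too (0.53, limma adjusted p = 0.00302), but at -0.03 with quantile normalization, -0.05 with cyclic loess and -0.01 with equal FPKM sums. CDH5, too low to be tested, stood at 0.48 to 0.64 FPKM with overexpression and 0.14 to 0.27 FPKM with vector. The part of these marker levels in the results was not tested.

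Promoters are shown for the 6 members with an entry in the promoter table used, which leaves out PSPH and SHMT2, so that members that passed the test can be read beside SHMT1, which did not. Each line gives the 250 bases before the RefSeq start on the gene's own strand, 5′ to 3′, on GRCh38.p14, a build other than the hg19 of the authors. Capitals mark matches on either strand to TGATGNAA (the core of the element bound by ATF4 with C/EBP factors), CACGTG (the E-box bound by MYC and MAX), TGACGTCA (the cAMP response element) or CCAAT (bound by NF-Y), none of which overlap here.
PHGDH, chr1:119711684-119711933, plus strand: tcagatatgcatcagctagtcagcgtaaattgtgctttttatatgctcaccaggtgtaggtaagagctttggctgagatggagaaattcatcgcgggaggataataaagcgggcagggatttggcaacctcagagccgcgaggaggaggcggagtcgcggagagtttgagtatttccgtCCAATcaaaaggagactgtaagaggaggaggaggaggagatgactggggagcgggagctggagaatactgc
PSAT1, chr9:78296875-78297124, plus strand: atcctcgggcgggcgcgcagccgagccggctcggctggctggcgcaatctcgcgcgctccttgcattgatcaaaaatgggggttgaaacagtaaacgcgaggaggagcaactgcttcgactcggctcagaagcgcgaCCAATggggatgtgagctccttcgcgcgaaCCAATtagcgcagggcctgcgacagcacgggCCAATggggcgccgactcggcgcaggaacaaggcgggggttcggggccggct
MTHFD1, chr14:64388103-64388352, plus strand: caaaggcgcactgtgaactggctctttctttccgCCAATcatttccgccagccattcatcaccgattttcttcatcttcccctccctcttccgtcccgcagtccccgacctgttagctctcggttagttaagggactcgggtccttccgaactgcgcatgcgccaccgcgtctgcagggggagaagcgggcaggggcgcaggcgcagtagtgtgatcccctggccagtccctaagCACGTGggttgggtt
MTHFD2, chr2:74198365-74198614, plus strand: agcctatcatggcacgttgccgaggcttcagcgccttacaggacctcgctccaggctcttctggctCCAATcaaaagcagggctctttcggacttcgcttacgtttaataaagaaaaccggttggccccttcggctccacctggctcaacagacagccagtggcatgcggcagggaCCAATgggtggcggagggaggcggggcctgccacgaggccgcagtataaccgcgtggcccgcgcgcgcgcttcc
MTHFD1L, chr6:150866236-150866485, plus strand: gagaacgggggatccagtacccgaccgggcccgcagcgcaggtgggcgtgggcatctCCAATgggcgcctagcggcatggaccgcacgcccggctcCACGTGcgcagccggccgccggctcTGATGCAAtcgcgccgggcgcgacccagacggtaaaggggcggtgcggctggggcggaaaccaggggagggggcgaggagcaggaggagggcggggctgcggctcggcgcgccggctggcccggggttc
SHMT1, chr17:18363551-18363800, minus strand: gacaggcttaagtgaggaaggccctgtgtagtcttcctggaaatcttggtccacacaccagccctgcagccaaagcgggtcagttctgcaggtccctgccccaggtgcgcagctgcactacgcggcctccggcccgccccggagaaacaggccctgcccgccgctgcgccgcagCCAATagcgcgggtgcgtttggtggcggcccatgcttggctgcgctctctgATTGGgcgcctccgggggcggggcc
All 6 windows hold CCAAT, 3 times in PSAT1, 2 times in MTHFD2 and SHMT1 and 1 time in the others, where 32% of 35116 human promoter windows of the same length hold it. CACGTG occurs in MTHFD1, at bases 15 to 10 before the start, and in MTHFD1L, at bases 154 to 149, against 6.34% of all windows. TGATGNAA occurs only in MTHFD1L among the 6, at bases 129 to 122 before this start, against 3.14% of all windows. TGACGTCA occurs in none of the 6 and in 1.65% of all windows. MTHFD1L has 4 listed starts, and 1 of them is shown; the windows of the others do not all hold these matches. SHMT1, which did not pass the test, carries CCAAT like the members that did.

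In limma, with p-values adjusted by the Benjamini-Hochberg method over all 9694 rows, 5 of the 8 enzymes were higher in overexpression libraries, against 37.4% of all tested rows, and 1 was lower, against 11.9%. PHGDH, PSAT1, MTHFD1, MTHFD2 and MTHFD1L were the higher ones and PSPH the lower one. The groups did not overlap for 6 members on the higher side, where 44.9% of all rows did the same, and for 1 on the lower side, where 15.6% did. The median log2 change was 0.61 for the 8 members and 0.27 for all tested rows. In such bulk libraries, the number of cells expressing a gene and its RNA per cell cannot be told apart. How many members passed depended on the scaling. After median centring 4 were higher, against 24.0% of rows, and 1 lower, against 19.2%. After correction for gene length and GC content 3 were higher (21.1% of rows) and 1 lower (18.7%). Quantile normalization gave 2 higher (19.2%) and 2 lower (20.9%), and cyclic loess gave 2 higher (20%) and 2 lower (21.0%). With each library rescaled to the same FPKM sum, 1 member was higher, against 11.9% of rows, and 2 were lower, against 34.5%. At an adjusted p of 0.01 there were 4 higher (23.6%) and 0 lower (6.13%). All 8 members had a mean of at least 5 FPKM. With only such rows tested, 6 members were higher, against 49.6% of these rows, and 1 was lower, against 8.74%. A fit with the replicate number as a block called 33.6% of rows higher and 9.95% lower. Leaving out overexpression replicate 1, 2 or 3 left 31.1%, 30.8% or 28.6% of rows higher and 10.3%, 9.16% or 8.38% lower. Leaving out vector replicate 1, 2 or 3 left 34.6%, 34.1% or 34.8% higher and 10.4%, 10.1% or 10.0% lower. Summed over the 8 enzymes, FPKM came to 189, 211 and 204 in the overexpression libraries and to 136, 139 and 139 in the vector libraries. As a share of all FPKM this was 0.147%, 0.164% and 0.160% with overexpression and 0.156%, 0.160% and 0.157% with vector, and the groups overlap.

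**Figure D1:**
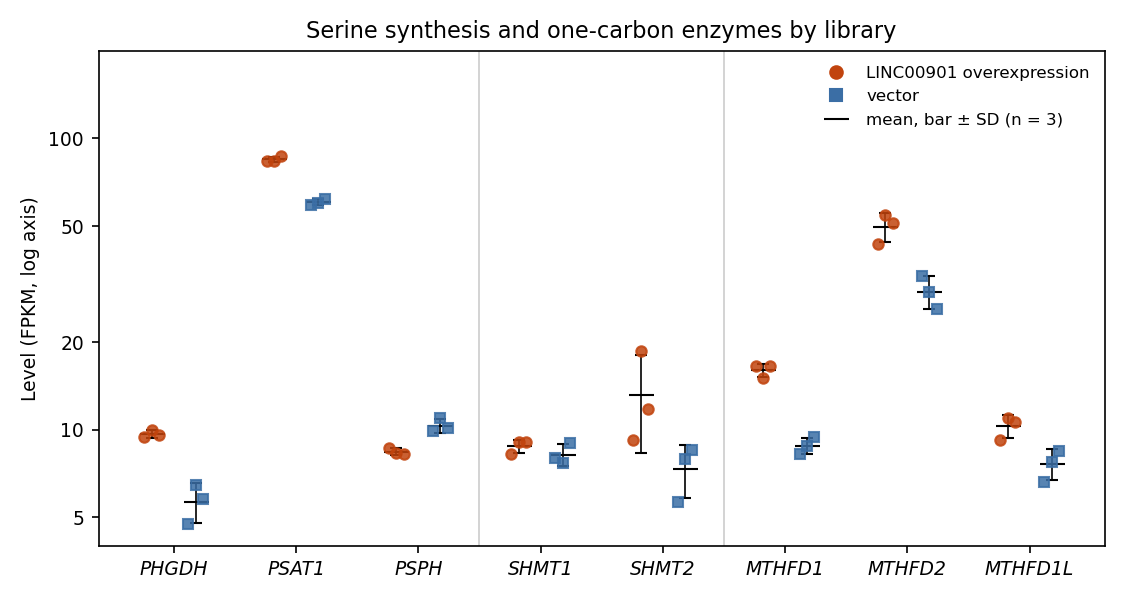
Levels of the 8 enzymes in each library, in FPKM on a log axis; circles are LINC00901 overexpression libraries, squares vector libraries, and the dash with its bar is the mean ± SD (n = 3). MTHFD1 at 15 to 16.55 FPKM lies above all vector libraries at 8.27 to 9.42 FPKM, and PSPH at 8.23 to 8.69 FPKM lies below all of them at 9.92 to 10.95 FPKM.

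Of the 3 serine synthesis enzymes, PHGDH and PSAT1 were higher and PSPH was lower. PHGDH, the dehydrogenase that commits 3-phosphoglycerate to serine, stood at 9.41, 9.99 and 9.57 FPKM in overexpression libraries, against 4.73, 6.47 and 5.80 FPKM in vector libraries. Every overexpression library was above every vector library, and the overexpression libraries lay closer together. Its log2 change was 0.73 (95% interval 0.43 to 1.03; limma adjusted p = 0.00349), or 0.46 relative to the median row. Ranked among the tested rows of its library, PHGDH stood at the 70.7 to 73.1 percentile with overexpression and at the 52.3 to 65.0 percentile with vector. With gene length and GC content corrected, the PHGDH change was 0.32 (limma adjusted p = 0.0830), and with equal FPKM sums it was 0.22 (limma adjusted p = 0.197).

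PSAT1, the aminotransferase of the second step, was the most abundant of the 8 in both groups. It stood at 83.90, 83.86 and 86.86 FPKM in overexpression libraries, against 59.16, 59.83 and 61.92 FPKM in vector libraries. The groups were far apart for the small spread within each. The log2 change was 0.49 (95% interval 0.35 to 0.63; limma adjusted p = 0.000844), or 0.22 relative to the median row. This direction depended on the scaling: the PSAT1 change was -0.25 with quantile normalization (limma adjusted p = 0.0142), -0.26 with cyclic loess (0.0117) and -0.05 with equal FPKM sums (0.462). Ranked among tested rows, PSAT1 stood at the 97.9 to 98.0 percentile with overexpression and at the 98.3 to 98.4 percentile with vector. Processed pseudogenes of PSAT1 align to its transcript at up to 95.45% identity, and how the authors' counting treated such reads is not given in the sources used here.

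PSPH, the phosphatase of the last step, was the only one of the 8 lower in overexpression libraries on the deposited values. It stood at 8.69, 8.33 and 8.23 FPKM with overexpression, against 9.92, 10.95 and 10.11 FPKM with vector. No overexpression library reached the lowest vector library. The log2 change was -0.28 (95% interval -0.49 to -0.07; limma adjusted p = 0.0343), or -0.54 relative to the median row. The unscaled call was lost without overexpression replicate 1 (limma adjusted p = 0.0573), 2 (0.0825) or 3 (0.110) and without vector replicate 2 (0.0812) or 3 (0.0573). PSPH was lower under all 5 other scalings, from -0.49 with median centring (limma adjusted p = 0.00494) to -0.80 with equal FPKM sums (0.000757). Its percentile among tested rows was 66.6 to 68.1 with overexpression and 79.5 to 82.1 with vector.

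PSPH and PHGDH stood in opposite order in the overexpression and vector libraries. The ratio of PSPH to PHGDH in FPKM was 0.923, 0.834 and 0.860 in the overexpression libraries and 2.10, 1.69 and 1.74 in the vector libraries. PSPH was thus below PHGDH in each overexpression library and above it in each vector library. A ratio within a library is free of any factor common to all its genes, but not of one that varies with level. The log2 ratio, with 0.5 FPKM added to each value, differed by -1.01 (-0.19 ± 0.07 with overexpression, 0.82 ± 0.15 with vector; SD, n = 3), with an exact two-sided permutation p = 0.1, the smallest that 3 against 3 libraries allow. For PSPH over PSAT1 the difference was -0.77 (-3.26 ± 0.06 with overexpression, -2.49 ± 0.08 with vector; SD, n = 3; exact permutation p = 0.1). With quantile normalization the log2 changes were -0.59 for PSPH, -0.25 for PSAT1 and 0.46 for PHGDH. With cyclic loess they were -0.59, -0.26 and 0.46, so PSPH and PSAT1 lay closer together under both. PSPH made up 8.18% ± 0.329 of the summed FPKM of the 3 enzymes with overexpression and 13.5% ± 0.598 with vector (SD, n = 3). The ratio of PSAT1 to PHGDH overlapped between the groups (log2 difference -0.24, exact permutation p = 0.200).

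**Figure D2:**
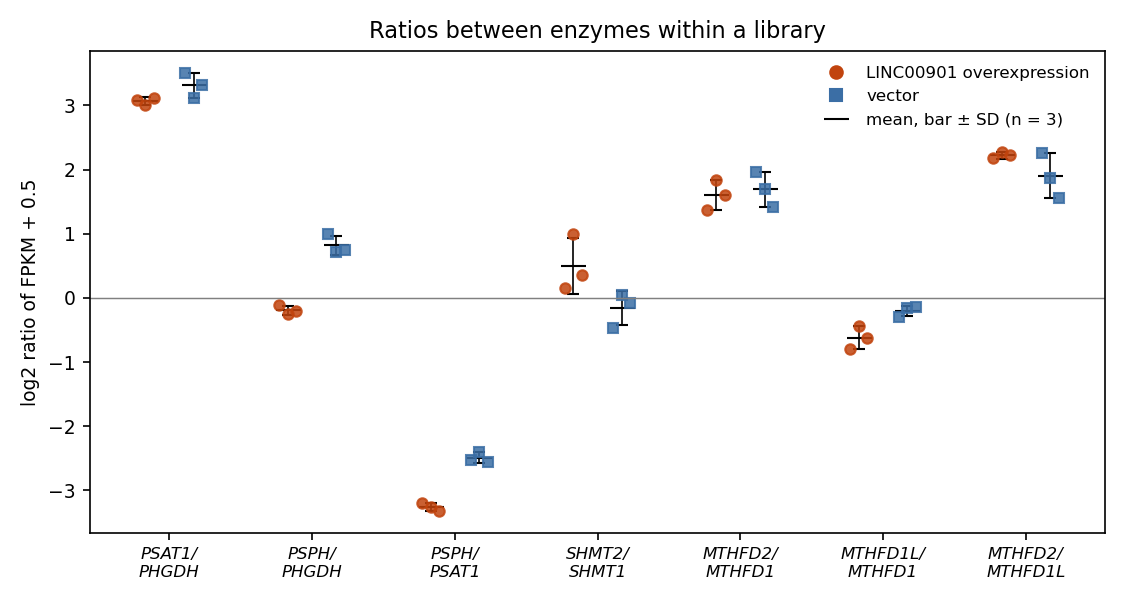
Log2 ratios between pairs of enzymes in each library, with 0.5 FPKM added to each value; circles are LINC00901 overexpression libraries, squares vector libraries, and the dash with its bar is the mean ± SD (n = 3). The PSPH/PHGDH ratio lies below 0 in the overexpression libraries and above 0 in the vector libraries, and the MTHFD2/MTHFD1 ratios overlap.

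Neither hydroxymethyltransferase passed the test. SHMT1, the cytosolic form, stood at 8.25, 9.06 and 9.05 FPKM in overexpression libraries, against 8.0, 7.66 and 8.99 FPKM in vector libraries. The groups overlap, and the log2 change was 0.09 (95% interval -0.14 to 0.33; limma adjusted p = 0.467). Its sign depended on the scaling, with -0.12 after median centring and -0.42 with equal FPKM sums (limma adjusted p = 0.0117). A processed pseudogene, SHMT1P1, aligns to the transcript at 91.11% identity.

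SHMT2, the mitochondrial form, varied most among the 8 in the overexpression group, relative to its mean. It stood at 9.20, 18.60 and 11.75 FPKM there, against 5.65, 7.95 and 8.49 FPKM in vector libraries. The groups do not overlap, but overexpression replicate 2 was far above the other two. The log2 change of 0.76 had a wide 95% interval, 0.13 to 1.39, and a limma adjusted p of 0.0502. Without overexpression replicate 2 the SHMT2 change was 0.49 (limma adjusted p = 0.106), and without overexpression replicate 1 it was 0.98 (0.0268). The SHMT2 share of the summed FPKM of both genes was 52.7%, 67.2% and 56.5% with overexpression and 41.4%, 50.9% and 48.6% with vector. The log2 ratio of SHMT2 to SHMT1 differed by 0.67 (0.50 ± 0.44 with overexpression, -0.16 ± 0.27 with vector; SD, n = 3; exact permutation p = 0.1), and by 0.42 without overexpression replicate 2.

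All 3 folate dehydrogenase-family genes were higher on the deposited values. MTHFD1, which joins formate to folate in the cytosol, stood at 16.49, 15 and 16.55 FPKM in overexpression libraries, against 8.27, 8.77 and 9.42 FPKM in vector libraries. The lowest overexpression library was well above the highest vector library. The log2 change was 0.83 (95% interval 0.61 to 1.04; limma adjusted p = 0.000657), or 0.56 relative to the median row. MTHFD1 was the only member called higher under all 6 scalings, from 0.30 with equal FPKM sums (limma adjusted p = 0.0307) to the unscaled 0.83. Without any single library it ranged from 0.78 to 0.87. Of genes that overlap it on the other strand, ZBTB25 was lower, at 1.86, 2.69 and 2.86 FPKM with overexpression and 5.16, 4.54 and 4.08 FPKM with vector. Its processed pseudogene MTHFD1P1 aligns at 93.09% identity.

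MTHFD2, the mitochondrial dehydrogenase and cyclohydrolase, was the second most abundant member in both groups. It stood at 43.45, 54.80 and 51.24 FPKM in overexpression libraries, against 33.63, 29.67 and 26.03 FPKM in vector libraries. The groups do not overlap. The log2 change was 0.73 (95% interval 0.44 to 1.03; limma adjusted p = 0.00343), or 0.47 relative to the median row. The call was lost for MTHFD2 with quantile normalization (0.13, limma adjusted p = 0.472), cyclic loess (0.11, 0.555) and equal FPKM sums (0.19, 0.260). A transcript of SLC4A5, a bicarbonate transporter gene on the opposite strand, shares 1324 identical bases with the MTHFD2 transcript. SLC4A5 stood at 10.53, 11.44 and 10.28 FPKM with overexpression and at 5.25, 4.89 and 5.34 FPKM with vector. Whether the counting used strand is not given in the sources used here, so reads of both genes may not be told apart.

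MTHFD1L, the mitochondrial enzyme that releases formate, had the smallest called rise. It stood at 9.23, 10.95 and 10.61 FPKM in overexpression libraries, against 6.63, 7.78 and 8.48 FPKM in vector libraries. The groups do not overlap, although the closest libraries were near each other. The log2 change was 0.41 (95% interval 0.12 to 0.70; limma adjusted p = 0.0301), or 0.14 relative to the median row. The call was lost without overexpression replicate 2 (limma adjusted p = 0.0895) or 3 (0.0923) and without vector replicate 1 (0.0717) or 2 (0.0578). It was also lost under all 5 other scalings, and the sign turned with equal FPKM sums (-0.11).

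Within the folate dehydrogenase family, the ratio of MTHFD1L to MTHFD1 did not overlap between the groups. In FPKM it was 0.560, 0.730 and 0.641 in overexpression libraries and 0.802, 0.887 and 0.900 in vector libraries, a log2 difference of -0.42 (exact permutation p = 0.1). MTHFD2 over MTHFD1 overlapped between groups, with a log2 difference of -0.09 (exact permutation p = 0.700), and so did MTHFD2 over MTHFD1L, at 0.33 (exact permutation p = 0.300). MTHFD2 and MTHFD1L together made up 78.8% ± 2.63 of the summed FPKM of the 3 genes with overexpression and 80.8% ± 2.21 with vector (SD, n = 3). In all 7 pairs of members were compared, and the smallest p adjusted over them was 0.175 (exact permutation test).

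**Figure D3:**
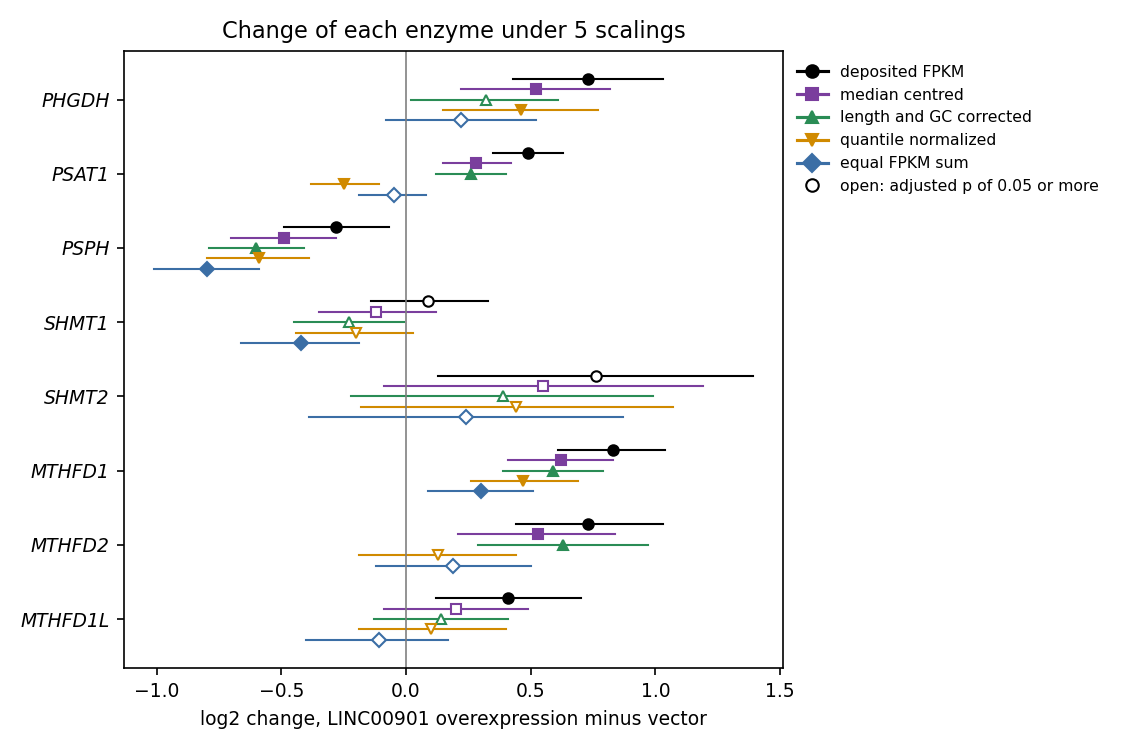
Log2 change of each enzyme, LINC00901 overexpression minus vector, with 95% limma intervals under 5 scalings of the same FPKM values; filled symbols have an adjusted p under 0.05. PSPH lies left of 0 and MTHFD1 right of 0 under each of the 5, while PSAT1 lies at 0.49 unscaled and at -0.25 after quantile normalization.

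The order of levels had PSAT1 first and MTHFD2 second in both groups, with ranges that separate from the next gene. PHGDH was the lowest of the 8 in vector libraries, at 5.67 ± 0.878 FPKM (SD, n = 3), and its range overlaps that of SHMT2 just above it. PSPH was the lowest with overexpression, at 8.42 ± 0.242 FPKM (SD, n = 3), and its range overlaps that of SHMT1. In vector libraries PSPH came next after MTHFD2, at 10.3 ± 0.548 FPKM (SD, n = 3), apart from MTHFD1 below it. MTHFD1, SHMT1, MTHFD1L, SHMT2 and PHGDH formed a run of overlapping neighbours in the vector group.

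Among all tested rows outside the 8, those with profiles closest to 3 of the enzymes were found by Euclidean distance between mean-centred log2(FPKM + 0.5) values over the 6 libraries. EEF1D (distance 0.097), SCD5 (0.116) and PIGS (0.119) were closest to PHGDH. Closest to PSPH were DAP3 (0.023), WDR75 (0.079) and NUP54 (0.080). For MTHFD2 they were the joined row RAVER1;ZGLP1;FDX2 (0.072), HEXIM2 (0.093) and CAMSAP3 (0.122). None of these 9 rows belongs to the pathway lists described next.

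Genes that bring folate and serine into cells or mitochondria were the list with most members lower. Of 10 tested, 5 were lower, against 11.9% of all rows, and 1 was higher, against 37.4%. The list median was -0.42 log2, against 0.27 for all rows. SLC1A4, a neutral amino acid transporter that carries serine, stood at 1.69 ± 0.144 FPKM with overexpression and 3.42 ± 0.560 FPKM with vector (SD, n = 3; log2 change -0.83, limma adjusted p = 0.00388). SLC19A1, the reduced folate carrier, stood at 1.03 ± 0.256 FPKM with overexpression and 2.09 ± 0.0721 FPKM with vector (SD, n = 3; log2 change -0.77). The sideroflexin SFXN2 (-0.71) and the glutamine and serine carrier SLC38A1 (-0.63) were lower too, as was the joined row of SLC25A32, the mitochondrial folate carrier (-0.58, named after its values were seen). These 5 kept their direction under all scalings in which they had a value. All of them but SLC38A1 had group means under 5 FPKM. Of all rows with a mean of at least 5 FPKM 8.74% were lower, and no share was computed for rows below that level. The call of the SLC25A32 row was lost without overexpression replicate 1 (limma adjusted p = 0.123), 2 (0.0555) or 3 (0.0941) and without vector replicate 2 (0.0725) or 3 (0.0899). SFXN1, the mitochondrial serine carrier, also named after its values were seen, did not pass, at 14.18, 12.87 and 13.79 FPKM with overexpression and 16.00, 16.26 and 14.84 FPKM with vector. It was called lower under all 5 other scalings, from -0.36 with length and GC corrected to -0.73 with equal FPKM sums. The higher member, SLC38A2 (0.21, named after its values were seen), turned negative with median centring, quantile normalization, cyclic loess and equal FPKM sums. Lower members numbered 6 of 10 after median centring, where 19.2% of all rows were lower, and 8 of 10 with equal FPKM sums, where 34.5% were.

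Other folate enzymes were higher in 4 of 10 tested cases, near the 37.4% of all rows, and lower in 0, against 11.9%. TYMS, thymidylate synthase, stood at 56.0 ± 2.27 FPKM with overexpression and 39.1 ± 4.59 FPKM with vector (SD, n = 3; log2 change 0.52), but at -0.12 with quantile normalization, -0.15 with cyclic loess and -0.02 with equal FPKM sums. MTFMT, which formylates the mitochondrial initiator tRNA, changed by 0.33, and by -0.17 with equal FPKM sums. MTFMT passed under no other scaling and not with the replicate block (limma adjusted p = 0.107). Its call was lost without overexpression replicate 1 (limma adjusted p = 0.0921), 2 (0.0687) or 3 (0.163) and without vector replicate 1 (0.112) or 3 (0.113). The mitochondrial isozyme MTHFD2L, named after its values were seen, did not pass, at 1.83, 1.62 and 3.45 FPKM with overexpression and 2.33, 2.86 and 3.27 FPKM with vector. With equal FPKM sums 0 members of this list were higher, against 11.9% of all rows, and 2 lower, against 34.5%.

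The list of serine and glycine use included CTH, which acts after the step that uses serine and had the largest rise in the metabolic lists. Of 9 tested, 5 were higher, against 37.4% of all rows, and 0 lower, against 11.9%. CTH, the last enzyme of transsulfuration, which makes cysteine, stood at 9.02 ± 0.562 FPKM with overexpression and 2.63 ± 0.404 FPKM with vector (SD, n = 3; log2 change 1.61, limma adjusted p = 0.000195). CBS, which joins serine to homocysteine in the step before, changed by 1.02, and SRR, serine racemase, by 0.86. ALAS1, which condenses glycine with succinyl-CoA at the start of haem synthesis, changed by 0.77. These 4 stayed positive under all 6 scalings, although CBS did not pass with length and GC corrected (0.60, limma adjusted p = 0.0687) or with equal FPKM sums (0.52, 0.0986). With equal FPKM sums 3 members were higher, against 11.9% of all rows, and 3 lower, against 34.5%.

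In the methionine cycle 3 of 7 tested genes were higher, near the 37.4% of all rows, and 0 lower, against 11.9%. AHCY, which hydrolyses S-adenosylhomocysteine, stood at 24.2 ± 3.21 FPKM with overexpression and 12.3 ± 1.0 FPKM with vector (SD, n = 3; log2 change 0.95), and its relative AHCYL1 changed by 0.93. MAT2B, the regulatory subunit of methionine adenosyltransferase, changed by 0.54, but did not pass with quantile normalization, cyclic loess or equal FPKM sums. MTR, the methionine synthase that takes its methyl group from folate, was named after its values were seen and did not pass, at 5.92, 6.94 and 5.13 FPKM with overexpression and 6.42, 6.03 and 5.85 FPKM with vector. After median centring 3 were higher, against 24.0% of all rows, and 2 lower, against 19.2%.

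De novo purine synthesis, which takes ring carbons from folate, had 7 of 12 genes higher, against 37.4% of all rows, and 0 lower, against 11.9%. Most of these genes had a mean of at least 5 FPKM, and of all rows at that level 49.6% were higher and 8.74% lower. GART, which transfers such a carbon, stood at 45.8 ± 2.17 FPKM with overexpression and 26.7 ± 0.895 FPKM with vector (SD, n = 3; log2 change 0.77). ATIC, which transfers another, changed by 0.65, PFAS, which acts between them, by 0.79 and IMPDH2, of guanine nucleotide synthesis, by 1.29. These 4 stayed positive under all 6 scalings, although GART and ATIC did not pass with quantile normalization or cyclic loess, nor ATIC with equal FPKM sums (0.11, limma adjusted p = 0.225). After median centring 6 were higher, against 24.0% of all rows, and 0 lower, against 19.2%. Quantile normalization gave 2 higher, against 19.2%, and 1 lower, against 20.9%. Equal FPKM sums gave 3 higher, against 11.9%, and 2 lower, against 34.5%.

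Around 3-phosphoglycerate, the branch point to serine, 6 of 8 lower glycolysis genes were higher, against 37.4% of all rows, and 1 was lower, against 11.9%. Here too most genes had a mean of at least 5 FPKM, where 49.6% of all rows were higher and 8.74% lower. GAPDH stood at 665 ± 3.96 FPKM with overexpression and 268 ± 5.85 FPKM with vector (SD, n = 3; log2 change 1.31), and ENO1 and BPGM changed by 1.18 and 1.15. With quantile normalization the change was 0.23 for GAPDH (limma adjusted p = 0.106) and 0.28 for ENO1, and with cyclic loess 0.21 for GAPDH and 0.29 for ENO1. BPGM is the mutase that diverts this pathway in red cells. The neuronal enolase ENO2 was lower (log2 change -0.42), but not without overexpression replicate 1 (limma adjusted p = 0.0998) or 3 (0.119) or vector replicate 2 (0.0579) or 3 (0.0949). Quantile normalization gave 2 higher, against 19.2% of all rows, and 2 lower, against 20.9%. With equal FPKM sums 3 were higher, against 11.9%, and 1 lower, against 34.5%.

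The list of ATF4 and its other targets had the highest list median, 0.81 log2. Of its 20 genes 15 were higher, against 37.4% of all rows, and 1 lower, against 11.9%. The list also holds EIF2AK3 and EIF2AK4, kinases that act upstream of ATF4, both named after their values were seen. EIF2AK4 is among the 15 (log2 change 0.75), and changed by 0.23 with equal FPKM sums. ATF4 itself, named after its values were seen, stood at 72.22, 67.77 and 66.43 FPKM with overexpression and at 35.00, 37.47 and 36.44 FPKM with vector (log2 change 0.91, limma adjusted p = 0.000182). With quantile normalization the ATF4 change was 0.26 and with cyclic loess 0.23. CEBPB, a partner of ATF4, changed by 1.99, the joined row of DDIT3 by 1.81 and DDIT4 by 1.78. The cystine transporter SLC7A11 was lower, at 3.60 ± 0.545 FPKM with overexpression and 13 ± 0.195 FPKM with vector (SD, n = 3). The asparagine synthetase ASNS, also named after its values were seen, changed by 0.38 (limma adjusted p = 0.0326), and by -0.13 with equal FPKM sums. ASNS passed under no other scaling and not with the replicate block (limma adjusted p = 0.0536). Its call was lost without overexpression replicate 1 (limma adjusted p = 0.0860) or 3 (0.103) and without vector replicate 1 (0.0836) or 2 (0.0811). With equal FPKM sums 9 of the 20 were higher, against 11.9% of all rows, and 3 lower, against 34.5%, and the list median was 0.30.

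**Figure D4:**
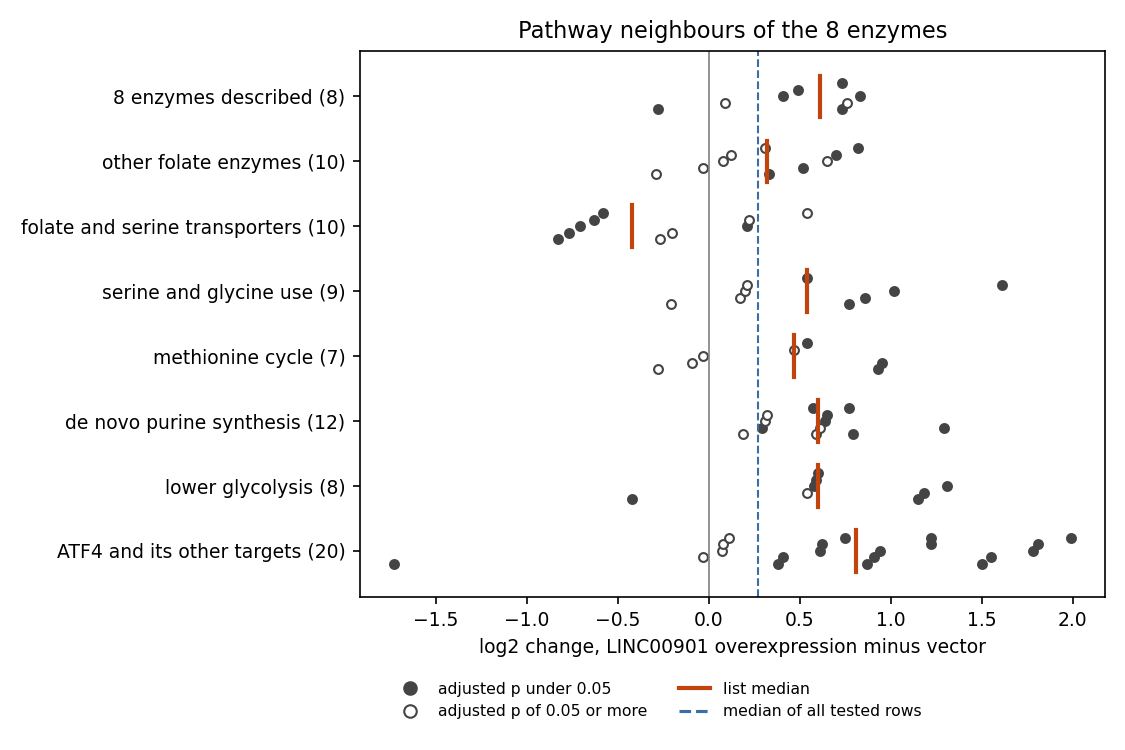
Log2 change of each tested gene, LINC00901 overexpression minus vector, for the 8 enzymes and 7 lists of pathway neighbours, with the number tested in brackets; filled points have an adjusted p under 0.05, the solid bar is the list median and the dashed line the median of all tested rows, 0.27. The median of folate and serine transporters lies at -0.42 and that of the ATF4 list, which includes EIF2AK3 and EIF2AK4, at 0.81.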

How the data were processed

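The deposited table gives FPKM values made by the authors, 1 column per library, with 2 decimals. The build is hg19 and the tools named are HISAT2, cutadapt and FastQC, per the submitters' processing notes. No version is named, and how FPKM was computed is not given in the sources used here. Without counts, the depth of each library is unknown. Of 18268 rows, 990 join several names. A 0 is reported only as listed at 0.

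Values were transformed to log2(FPKM + 0.5), which understates changes of low genes. Rows with a mean of at least 1 FPKM were kept (9694) and compared in R 4.3.3 by limma (3.58.1), without a replicate block, using an intensity trend and Benjamini-Hochberg adjustment at 0.05. Ratios between members were compared by exact permutation over libraries. Length and GC content came from principal transcripts of GENCODE 29 by symbol, known for 8830 tested rows (91.1%), and were removed with splines of 4 degrees of freedom each. Transcript copies needed at least 90% identity over 500 bases. Promoter sequences are from a RefSeq table used here, in which 6 of the 8 members matched.

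Named genes are the 8 members, up to 4 passing members per list whose groups do not overlap, by change relative to the median row, and the 3 closest profiles to PHGDH, PSPH and MTHFD2. Pathway genes outside this rule are marked as named after their values were seen. Some genes it selects are not reported here. Members and lists were chosen with earlier results of these data known. The limma fit and the length correction were tested on simulated data. The labels give no batch. Other steps used Python 3.11.15 with scipy 1.17.1, pandas 2.3.3, matplotlib 3.10.9 and numpy 2.4.6.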

Additional observations from a re-analysis of the deposited data

How the results depend on the processing

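Of 160 recomputed changes of single enzymes, 126 kept direction and side of the threshold, 21 lost the call, 4 gained it and 9 turned sign. Alternatives that alter only which rows are tested, the limma fit or the threshold leave the log2 change as it is. There only the call could move, and the same holds for the pathway genes below. MTHFD1 held under all 20 alternatives. The sign turned for PSAT1 with quantile normalization (-0.25), cyclic loess (-0.26) and equal FPKM sums (-0.05, an alternative chosen after seeing the data). It turned for SHMT1 with median centring (-0.12), quantile normalization (-0.20), cyclic loess (-0.20), the length and GC correction (-0.23) and equal FPKM sums (-0.42), and for MTHFD1L with equal FPKM sums (-0.11). The cause was not tested.

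Members called higher and lower numbered 5 and 1 (37.4% and 11.9% of all rows). With quantile normalization they were 2 and 2 (19.2% and 20.9%), and with cyclic loess 2 and 2 (20% and 21.0%). After correcting length and GC they were 3 and 1 (21.1% and 18.7%), and with equal FPKM sums 1 and 2 (11.9% and 34.5%). At an adjusted p of 0.01 they were 4 and 0 (23.6% and 6.13%). Without single libraries the lower count was 0 to 1 (8.38% to 10.4% of all rows). Over the 7 pathway lists, calls (41 higher, 7 lower) became 22 and 14 with quantile normalization, 24 and 14 with cyclic loess, and 20 and 22 with equal FPKM sums. The shares of all rows under these scalings are those just given for the members, and the number tested per list is given above. Lower calls in the lists numbered 11 with median centring (19.2% of all rows) and 11 after correcting length and GC (18.7%). They numbered 3 with a mean of at least 5 FPKM (8.74%), where fewer genes are tested.

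Over all genes, 3621 higher and 1152 lower became 2331 and 1866 with median centring, 1865 and 2024 with quantile normalization, 1942 and 2034 with cyclic loess, 1867 and 1654 after correcting length and GC, and 1155 and 3345 with equal FPKM sums. They were 2396 and 422 with a mean of at least 5 FPKM and 2287 and 594 at an adjusted p of 0.01.

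Of 77 recomputed ratios 4 turned sign. The MTHFD2/MTHFD1 log2 difference was 0.04 with the length and GC correction and -0.23 to 0.04 without single libraries, and MTHFD2/MTHFD1L was -0.00038 with cyclic loess.

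Of 667 recomputed changes of 34 genes of the 7 pathway lists, 594 kept direction and call and 11 turned sign. These were MTFMT (-0.17), TYMS (-0.02), SLC38A2 (-0.34) and ASNS (-0.13) with equal FPKM sums, TYMS (-0.12) and SLC38A2 (-0.68) with quantile normalization, TYMS (-0.15) and SLC38A2 (-0.80) with cyclic loess, and SLC38A2 (-0.0029) with median centring. MTR turned without overexpression replicate 3 (0.07) or vector replicate 1 (0.0034). Among markers, the row that joins CD68 with EIF4A1 and SENP3 turned with quantile normalization (-0.03), cyclic loess (-0.05) and equal FPKM sums (-0.01).

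Same-numbered libraries did not deviate together over all tested rows (correlations -0.0370, -0.00574 and -0.00503). Whether some genes vary with the replicate number was not tested. With the replicate block, 6 members were higher, against 33.6% of all rows, and 0 lower, against 9.95%. There SHMT2 passed (limma adjusted p = 0.0213) and PSPH did not (0.0861). No library correlated best with the library of its own number in the other group. Depth is unknown, so no counting error can be given.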
